A study of Mus musculus with 4 samples.

Results

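The sites described here are stretches of the mouse genome at which E2A was called bound in both developing CD4+ CD8+ double-positive (DP) thymocytes and invariant natural killer T (iNKT) cells. A site was counted when an E2A peak of the iNKT list overlapped a peak of the DP list by 1 bp or more, which held for 1050 of 1516 iNKT peaks. The sites were thus chosen by the peak calls of both libraries, and the share of 69.3% is the rule itself and no finding. These sites met 1051 of 17532 DP peaks, or 5.99% of that list. Overlaps were not marginal, since the smallest measured 183, 197, 352 and 393 bp. Among the 466 iNKT peaks left out, the closest lay 29, 56, 74 and 180 bp from a DP peak, and 13 lay within 1 kb.

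E2A is an E protein, a helix-loop-helix transcription factor made from Tcf3 that binds as a dimer to the E-box, a short DNA word with the pattern CANNTG. Id proteins dimerise with E proteins and keep them off DNA, and in thymocytes the balance between both families sets how far E2A acts at the steps before and after selection of the T cell receptor. DP cells rearrange the T cell receptor alpha locus, and those that recognise lipid on CD1d become iNKT cells, so that a site bound at both stages spans this selection step.

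Both E2A libraries came from thymus of mice of 3-5 weeks lacking Id2 and Id3 in T cells (Id2 f/f Id3 f/f LckCre+, called L-DKO), on C57BL/6 or mixed C57BL/6 and 129 backgrounds, with cells of several mice pooled. DP cells were sorted as CD1dTet- CD4+ CD8+ and iNKT cells as CD1dTet+ TCRβ+, and chromatin was precipitated with the V-18 antibody and called against input of the same population. LckCre acts in T lineage cells, so both populations carried the deletion, and no library of cells with Id proteins entered here. There was 1 E2A library and 1 input per cell type, so every value below is a description of these libraries and no difference between cell types was tested. Binding lists hold no expression, and whether a weaker peak reflects fewer cells with E2A bound or less E2A per cell cannot be told apart.

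Each peak carries the score of the peak caller, 10 times the negative log10 of its p-value, with a floor of 50. In DP 258 peaks are tied at 3100 and 26 stand above it, up to 3225.28, and the 4 strongest iNKT peaks are tied at 3100. Scores grow with sequencing depth, which is not known here, so the lists were compared by position, as the percentage of the way down from the strongest peak of each list. A position of 1% is therefore a very strong peak in its own list.

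The clearest feature of the shared sites was the E-box. The word CAGGTG, read on both strands (CACCTG on the other), lay in the central 200 bp of 661 of 1050 sites, or 63.0% (95% Wilson interval 59.99 to 65.8, counting error only). Windows of the same length 2 kb to either side held it in 16.3% and windows at transcription start sites in 13.9%. The windows of shared sites sit at the midpoint of the overlap, which a peak of a single list does not have, so shared and unshared peaks were compared at the midpoint of each peak itself. On that measure CAGGTG lay in 60.7% of shared iNKT peaks (57.7 to 63.6) against 35.2% of unshared ones (30.99 to 39.6), a difference of 25.5 points. In DP it lay in 54.3% of shared (51.3 to 57.3) and 43.3% of unshared peaks (42.5 to 44.0), a smaller difference of 11.1 points. CAGCTG, the other E-box of E proteins, lay in 37.3% of shared sites against 10.1% of their flanks, and either word in 76.6% against 24.9%. More than a single CAGGTG was present at 249 sites (23.7%). At the peaks' own midpoints this held for 22.6% of shared against 10.3% of unshared iNKT peaks, and for 18.9% against 9.94% in DP.

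The following windows of 120 bp show the E-box nearest to the midpoint of the overlap, on which each window was centred, with its surroundings at genes of interest. They are given on the plus strand of mm9, 5′ to 3′, with each E-box of either word in capitals, on whichever strand it lies. They were chosen to cover the strongest sites in both lists and loci of T cell genes described further on.
B4galt1, chr4:40823225-40823344: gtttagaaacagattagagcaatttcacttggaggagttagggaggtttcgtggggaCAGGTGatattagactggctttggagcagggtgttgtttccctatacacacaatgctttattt
Ppm1h, chr10:122195549-122195668: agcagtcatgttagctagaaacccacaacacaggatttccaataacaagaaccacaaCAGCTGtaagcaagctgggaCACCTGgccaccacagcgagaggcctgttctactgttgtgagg
Selplg, chr5:114282726-114282845: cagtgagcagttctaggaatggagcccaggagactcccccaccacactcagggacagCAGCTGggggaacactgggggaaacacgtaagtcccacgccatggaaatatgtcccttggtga
Tgfbr2, chr9:116048013-116048132: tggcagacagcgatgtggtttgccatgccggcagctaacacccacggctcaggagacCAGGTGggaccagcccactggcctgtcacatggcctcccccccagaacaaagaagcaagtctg
Cd247, chr1:167774651-167774770: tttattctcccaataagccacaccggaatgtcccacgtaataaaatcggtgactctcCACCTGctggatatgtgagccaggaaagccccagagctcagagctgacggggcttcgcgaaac
Cd3g, chr9:44788600-44788719: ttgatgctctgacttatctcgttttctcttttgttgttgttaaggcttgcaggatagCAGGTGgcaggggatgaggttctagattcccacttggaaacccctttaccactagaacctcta
Ccr9, chr9:123665992-123666111: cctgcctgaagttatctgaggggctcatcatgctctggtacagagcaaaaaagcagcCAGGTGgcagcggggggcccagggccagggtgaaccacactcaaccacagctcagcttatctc
Ikzf1, chr11:11616721-11616840: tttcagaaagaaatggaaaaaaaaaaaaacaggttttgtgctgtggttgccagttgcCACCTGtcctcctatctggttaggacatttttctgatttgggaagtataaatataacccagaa
Id3, chr4:135683574-135683693: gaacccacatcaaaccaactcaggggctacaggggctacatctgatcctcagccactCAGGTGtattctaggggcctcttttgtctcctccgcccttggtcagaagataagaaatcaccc
Dgkd, chr1:89743692-89743811: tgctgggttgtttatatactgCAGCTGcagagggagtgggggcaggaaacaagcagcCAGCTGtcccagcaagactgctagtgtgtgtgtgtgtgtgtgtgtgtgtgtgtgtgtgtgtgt
Dgkd, weakest site, chr1:89803489-89803608: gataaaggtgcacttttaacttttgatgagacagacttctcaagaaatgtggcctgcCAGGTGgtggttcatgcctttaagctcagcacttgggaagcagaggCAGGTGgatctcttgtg

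B4galt1 (a Golgi galactosyltransferase) and Ppm1h (a protein phosphatase) each have a site among the strongest of both lists, with iNKT scores of 1633.84 and 1227.33 and DP scores tied at 3100. The E-box shown for B4galt1 lay 4 bp from the midpoint of the overlap and that for Ppm1h 5 bp, and the Ppm1h window held a CACCTG as well. At Ccr9, Selplg and Id3 the nearest E-box lay 12, 26 and 26 bp from the midpoint, at Tgfbr2 and Cd247 66 and 76 bp, and at the 2 Dgkd sites 76 and 99 bp. It was further away at Ikzf1, with 219 bp, and at Cd3g, with 485 bp.

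The E-box sat close to the middle of the shared stretch. The nearest CAGGTG was within 25 bp of the midpoint at 280 sites (26.7%, 24.1 to 29.4), against 4.33% of points 2 kb away. Measured from each peak's own midpoint, the share was 25.6% of shared and 14.2% of unshared iNKT peaks, and 22.3% of shared and 14.8% of unshared DP peaks. Within 100 bp it was 61.3% against 36.1% in iNKT and 55.0% against 44.1% in DP.

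**Figure D1:**
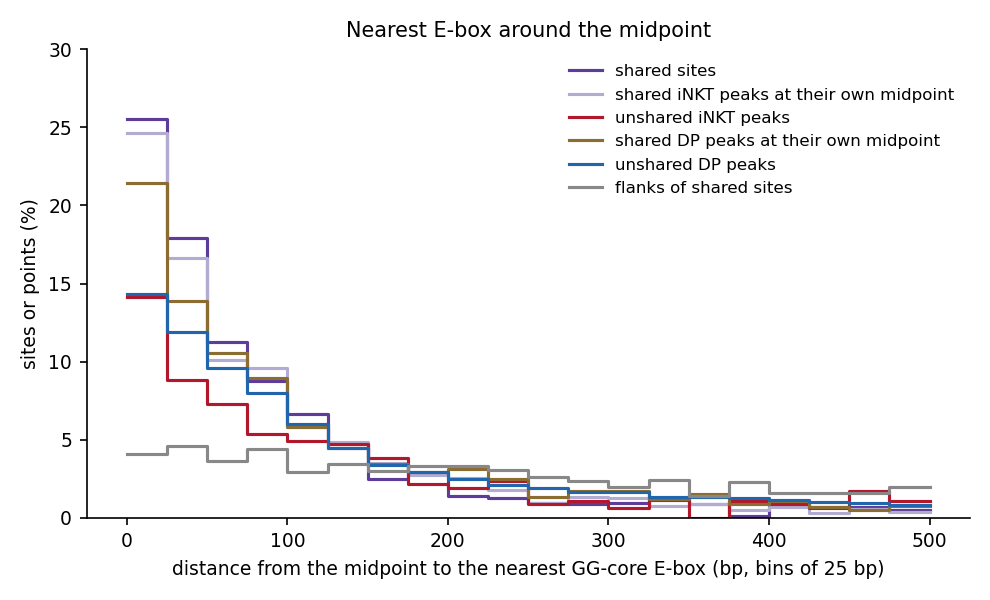
Distance in bp from the midpoint to the nearest CAGGTG (the E-box with a GG core), in bins of 25 bp, as percent of 1050 shared sites (midpoint of the overlap), of shared and unshared peaks of either list (midpoint of the peak) and of 2100 points 2 kb from the shared sites. In the first bin the shared iNKT peaks stand at 24.7% against 14.2% of the unshared ones, the shared DP peaks at 21.4% against 14.3%, and the flanking points at 4.10%.

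The bases next to CAGGTG differed from those in the flanks. Of 1206 occurrences in shared sites, T stood before the word in 5.89% against 16.3% of 387 occurrences in flanks, and A followed it in 8.96% against 20.7%. Each copy was counted, so sites with several copies weigh more, among them the tandem arrays described below. In the central 200 bp 99 sites held 3 or more copies, and shares without them were not computed. G before the word made up 39.4% and T or C after it 37.8% and 34.1%. GCAGGTGT and GCAGGTGC were the most frequent of the 8-base words, at 14.7% and 13.7%, against 5.43% and 4.91% in flanks. Unshared DP peaks gave 8.86% for T before the word and 39.4% for G, the latter as at shared sites. After the word, G stood in 19.2% of occurrences at shared sites, 26.1% at unshared DP peaks and 32.3% in flanks. For T after the word these shares were 37.8%, 32.2% and 25.3%.

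Peaks that are shared were also stronger, so the E-box was compared again among peaks of like score. CAGGTG was more frequent at shared than at unshared iNKT peaks in each of 5 bins of iNKT score, by 10.97 to 30.3 percentage points. Within 10 bins of the DP score the difference was positive in 9 of 10 bins and negative in the 7th, at -3.40 points with 29 shared peaks. In the strongest of these bins, which held 540 of the shared DP peaks, it was only 3.34 points (48.9% against 45.6%, with overlapping intervals). Within the shared sites the E-box share ran from 60.5% to 64.8% over 5 bins of iNKT score, with overlapping intervals. Over 5 bins of DP score, from strong to weak, it was 61.9%, 71.4%, 62.9%, 58.6% and 60%. It was 64.5% (60.5 to 68.3) at the 583 sites in the upper 50% of both lists and 48.98% (35.6 to 62.5) at the 49 in the lower 50% of both.

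Words of other factors differed less between shared sites and flanks. ACCACA, the Runx word, lay in 28.4% of shared sites and 15.8% of flanks, and at the peaks' own midpoints in 25.7% of shared and 23.7% of unshared DP peaks and in 26.6% and 22.3% of iNKT peaks, with overlapping intervals. TCAAAG, bound by Tcf7 and Lef1, lay in 20.6% against 13.3% of flanks, and on the same measure in 20.6% of shared and 17.2% of unshared DP peaks and in 20.5% and 15.9% of iNKT peaks. The difference was smaller for AGATAA, the Gata word, at 12.6% against 10.5% of flanks, with overlapping intervals. At the peaks' own midpoints AGATAA lay in 12.7% of shared (10.8 to 14.8) and 8.68% of unshared DP peaks (8.26 to 9.12), but in iNKT in 12.2% of shared (10.3 to 14.3) and 16.7% of unshared peaks (13.6 to 20.4). The Ets word GGAAG was near its flank level at shared sites (53.1% against 49.9%), and at the peaks' own midpoints it lay in 50.2% of shared and 61.4% of unshared DP peaks, but in 53.8% of shared and 46.4% of unshared iNKT peaks. The GC box GGGCGG, typical of promoters, lay in 7.90% of shared and 11.6% of unshared DP peaks on the same measure, and in 8.38% and 4.08% of iNKT peaks. Mean GC content was 50.5% at shared sites, 44.7% at unshared iNKT, 51.4% at unshared DP peaks and 45.9% in flanks, and its part in these shares was not tested.

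**Figure D2:**
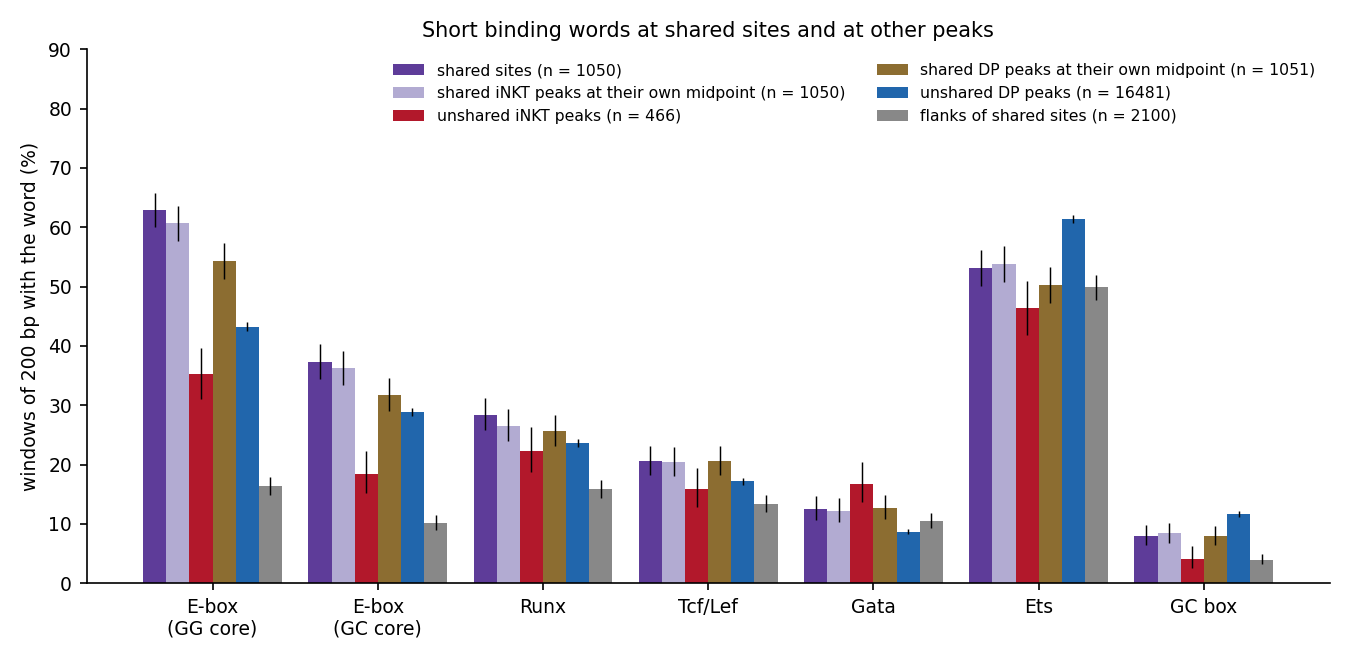
Percent of 200 bp windows that hold each short word (E-box with GG core is CAGGTG, with GC core CAGCTG) at shared sites (midpoint of the overlap), shared and unshared peaks of either list (midpoint of the peak) and flanks 2 kb from the shared sites; bars are shares and lines 95% Wilson intervals. The GG-core E-box stands at 60.7% in shared against 35.2% in unshared iNKT peaks and at 54.3% against 43.3% in DP, while the Ets word is highest at unshared DP peaks with 61.4%.

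A subset of the shared sites lay in tandem arrays of E-boxes. Counting CAGGTG and CAGCTG together in the central 1 kb, 59 sites (5.62%, 4.38 to 7.18) held 10 or more, and 59 peaks of each list did so at their own midpoints. Among unshared peaks the share was 3.00% of iNKT (1.80 to 4.98) and 0.880% of DP peaks (0.748 to 1.03). None of 2100 windows 5 kb away held as many, which allows a share of up to 0.143% when set at 3 counts of the total (0.183% as the Wilson limit), and the most in any of them was 8. The minimum of 10 was chosen after the counts were seen. The repeat was regular: in 58 of the 59 arrays at least 3 gaps between neighbouring E-boxes had the same length, and the commonest gap, from start to start, was between 6 and 45 bp in these. In 39 arrays at least 80% of E-boxes were CAGGTG, and in 12 they were CAGCTG to the same degree.

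Stretches of 120 bp of 7 arrays are shown, from mm9 on the plus strand, 5′ to 3′, with each E-box in capitals, because the repeat unit can be read in them.
Dyrk1a, chr16:94920044-94920163: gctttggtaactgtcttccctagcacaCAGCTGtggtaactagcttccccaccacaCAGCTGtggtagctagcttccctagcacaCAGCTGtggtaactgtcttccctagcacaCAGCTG
Fkbp11, chr15:98574205-98574324: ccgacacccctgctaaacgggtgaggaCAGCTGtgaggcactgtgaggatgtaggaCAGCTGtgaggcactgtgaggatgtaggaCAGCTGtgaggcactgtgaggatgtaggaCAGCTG
Ryr2, chr13:12051829-12051948: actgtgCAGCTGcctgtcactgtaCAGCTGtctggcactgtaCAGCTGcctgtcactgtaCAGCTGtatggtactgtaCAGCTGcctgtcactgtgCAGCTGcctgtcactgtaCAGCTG
Rin3, chr12:103582593-103582712: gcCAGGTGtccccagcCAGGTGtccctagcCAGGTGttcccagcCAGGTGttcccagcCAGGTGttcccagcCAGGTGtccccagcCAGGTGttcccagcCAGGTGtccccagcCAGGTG
Nr4a3, chr4:48048633-48048752: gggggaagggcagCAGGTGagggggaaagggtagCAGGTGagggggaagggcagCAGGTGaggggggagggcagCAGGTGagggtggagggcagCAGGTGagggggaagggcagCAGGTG
Nfkb1, chr3:135356766-135356885: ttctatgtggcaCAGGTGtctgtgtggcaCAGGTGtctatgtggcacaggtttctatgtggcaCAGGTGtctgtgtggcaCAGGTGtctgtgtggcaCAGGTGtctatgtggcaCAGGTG
Themis, chr10:28520829-28520948: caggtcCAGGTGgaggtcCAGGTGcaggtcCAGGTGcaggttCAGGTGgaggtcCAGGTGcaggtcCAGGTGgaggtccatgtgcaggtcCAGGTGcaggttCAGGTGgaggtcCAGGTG

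The Dyrk1a array, 128.837 kb from the start of this kinase gene and beyond its end, held 33 CAGCTG in 1 kb, with 30 of the gaps between neighbours 29 bp long. Its iNKT score was 2544.82 (rank 6) and its DP score 3100. The Fkbp11 array, 15.716 kb upstream of this prolyl isomerase gene, also had a spacing of 29 bp, and stood at rank 7 in iNKT with 2393.5 and at rank 4 in DP with 3214.37. These are the strongest arrays in both lists at once.

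Others stood lower in 1 list or in both. The array 9.063 kb upstream of Nr4a3, which encodes an orphan nuclear receptor induced by T cell receptor signals, held 35 CAGGTG and scored 213.02 in iNKT (rank 185) and 132.04 in DP (rank 9156). The Ryr2 array, in an intron of a calcium channel gene, had 26 CAGCTG and scored 154.06 in iNKT and 60.15 in DP (rank 15451). The Themis array went the other way: this gene is needed for thymocyte selection, and its intron holds 16 CAGGTG, mostly 12 bp apart, with an iNKT score of 54.13 (rank 1307) and a DP score of 1702.11 (rank 804). At Nfkb1, which encodes the p50 subunit of NF-kappaB, an array of 19 CAGGTG lay 2.173 kb upstream and scored 112.01 and 413.7. The Rin3 array, in an intron, held 32 CAGGTG, with 30 of its gaps 14 bp long, and scored 222.03 and 175.87.

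Set against the other shared sites, arrays stood lower in the DP list and slightly higher in the iNKT list. Their median position was 33.3% in iNKT and 23.0% in DP, against 40.6% and 8.30% for the other 991 sites. An array stood higher in the iNKT than in the DP list in 25 of 59 cases (42.4%), against 15.7% of the other sites. By number of E-boxes, the median DP position was 21.1% with none (33 sites), 12.1% with 1 to 2, 7.37% with 3 to 4, 3.91% with 5 to 9 and 23.0% with 10 or more. The iNKT position over the same groups was 37.1%, 47.2%, 41.5%, 28.4% and 33.3%, so that the median of sites with no E-box stood above those with 1 to 4 in iNKT and below them in DP. Of the 20 shared sites with the strongest iNKT peaks, a number chosen after the values were seen, 6 were arrays (near or in Twsg1, Dyrk1a, Fkbp11, Slc9a9 and Actr3, and a chromosome 15 site with no gene assigned), against 5.62% of all shared sites. Another 4 of these 20 had no E-box in 1 kb, against 3.14% of all shared sites, among them 2 of the 4 tied for the highest iNKT score. They lay on chromosomes 11, 12 and 17 with no gene assigned and at Gm10717, and those on chromosome 12 and at Gm10717 had copy numbers of 2 and 14. Only 1 array lay at a promoter, 36 were in introns and 21 between genes.

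**Figure D3:**
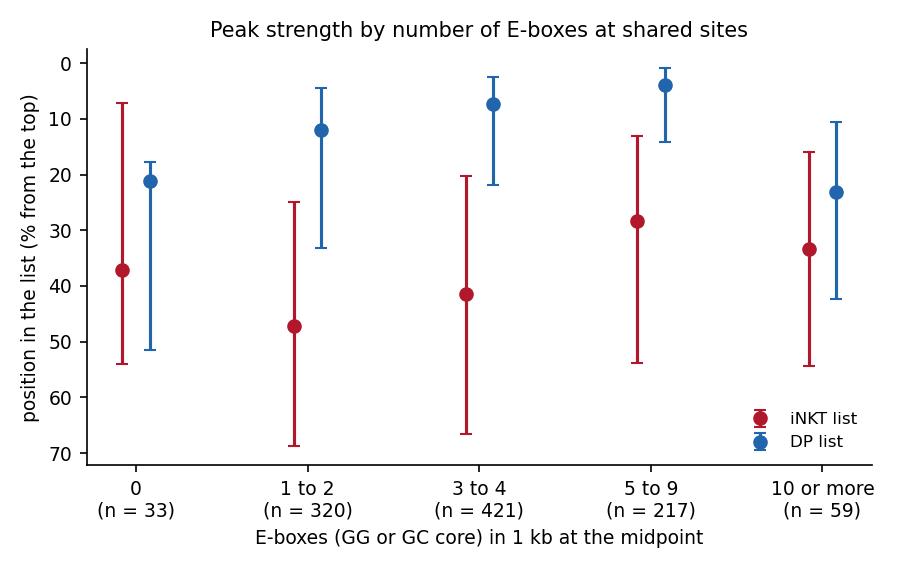
Median position of the shared sites in the iNKT and the DP peak list (percent from the top, strongest at the top of the axis) by the number of CAGGTG and CAGCTG in 1 kb at the midpoint, with lines from the lower to the upper quartile. The DP median climbs from 21.1% with none to 3.91% with 5 to 9 E-boxes and stands at 23.0% with 10 or more, while the iNKT median is 37.1% with none, 47.2% with 1 to 2 and 33.3% with 10 or more.

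Reads in repeats place less surely, and the files were made from reads with a single best position. The 31-base words of a whole peak occurred, at the median, once in the assembly at 57 of the 59 arrays. This median also covers sequence of the peak outside the array, and words within the arrays were not counted apart. How many repeat units the mice used here carry was not measured. At 33 sites the 1 kb held neither E-box. Of these, 18 were promoters and 8 lay in sequence with a median copy number above 1, and 16 stood higher in the iNKT list. Over all shared sites, 17 (1.62%) had a copy number above 1, against 6.87% of unshared iNKT peaks, and 2 of the 17 held CAGGTG.

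The order of the sites by strength was related only loosely between both cell types. Spearman's correlation of the scores was 0.276 over 1050 sites, as a description, with no p, since sites of a library share its depth and input. It was 0.304 for 473 intergenic, 0.253 for 455 intronic, 0.191 for 29 exonic and 0.266 for 93 promoter sites. By distance it was 0.211 for 234 sites within 10 kb of a start site but outside promoters, 0.326 for 449 sites at 10 to 50 kb and 0.225 for 274 sites further away. Among chromosomes it ran from -0.352 on X, with 13 sites, to 0.484 on chromosome 8, with 49.

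Without the 155 sites tied at a DP score of 3100 the correlation was 0.142. This narrows the range of DP scores, which can itself lower a correlation, and keeps the 15 sites above 3100. The drop is therefore not read as the part of the strongest DP peaks. In 5 bins of 210 sites by iNKT score, the strongest had a median DP score of 2203, against 1342, 861, 722 and 655 in the bins below, and 87 of its sites were also in the strongest 210 by DP score, against 21 in the weakest bin. Of the 139 shared sites in the top 10% of the iNKT list, 100 (71.9%) were also in the top 10% of the DP list, beside 52.1% of all shared sites. The DP list is longer, at 11.6 times the peaks of the iNKT list, and a site stood higher in DP than in iNKT in 869 cases (82.8%), with a median position of 8.99% in DP and 40.3% in iNKT. Shared sites make up 69.3% of the iNKT list, so their positions had to spread over it, while in the DP list, of which they are 5.99%, they could all stand near the top. How far the lower position in iNKT follows from the length of the lists was not tested, and it is not read as weaker binding there. Only 49 sites were in the lower 50% of both lists, and 56 were in the upper 50% in iNKT and the lower 50% in DP.

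**Figure D4:**
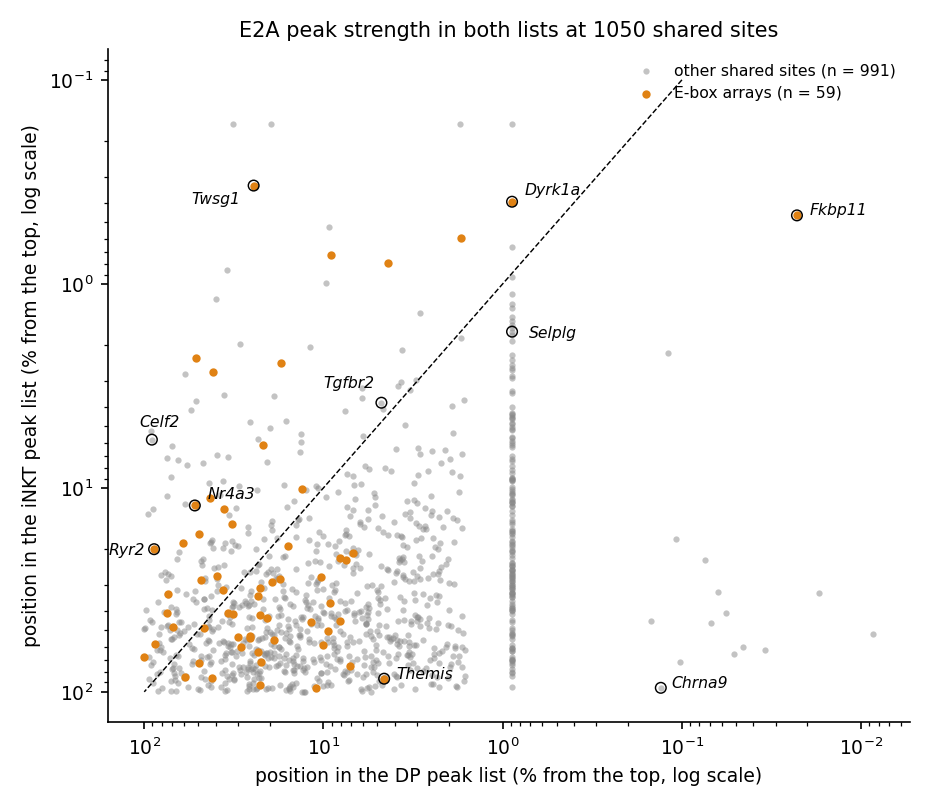
Position of each of the 1050 shared sites in the DP list (x) and the iNKT list (y), as percent from the strongest peak on log axes, with 59 E-box arrays in orange, the line of equal position dashed and 10 named sites circled. The column of points at 0.887% on x is the tie at a score of 3100 in the DP list, and 869 sites lie on the DP side of the dashed line.

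The 12 sites that stood highest in both lists were all in the top 2% of each. They were at or near Fkbp11, Pgk1, Dyrk1a, B4galt1, Ppm1h, 1110051M20Rik, Ubox5, Eif2c2 (Ago2, the slicer of RNA interference), Rabggta, Snai3 (a Snail-family repressor that also binds E-boxes) and Acoxl, and 1 had no gene assigned. The Snai3 site lay 3.684 kb upstream and scored 782.68 in iNKT and 3100 in DP, and the Rabggta site scored 798.32 and 3100. Only the Pgk1 site, 0.118 kb from the start of this glycolytic gene, was at a promoter.

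Sites at the other extreme stood far apart in the lists and are described, since they were picked for it. Higher in iNKT were a site 40.656 kb from Wdr75 (iNKT 386.49, DP 57.05), an intron of Celf2 (369.52 and 57.57), sites 25.415 kb from Dusp10 (199.34 and 53.66) and 18.033 kb from Fgl2 (208.95 and 59.3), the Ryr2 array, and a repeat near Gm10718 with a copy number of 14. Celf2 encodes a splicing regulator that T cells induce on activation, and Dusp10 a phosphatase that turns off JNK and p38. Higher in DP was a site 5.493 kb upstream of Chrna9 (51.3 and 3115.54), which is also 65.9 kb from Rhoh, a GTPase gene needed for T cell receptor signalling. The other 5 lay in an intron of Rest (50.79 and 2256.74), near Podxl2 (51.53 and 3100), Sptlc1 (50.28 and 1417.69) and Klf13 (50.06 and 1535.78), and on chromosome 12 with no gene within 100 kb. The E-box nearest to the midpoint is shown in capitals for a site of either kind, 23 bp from it at Celf2 and 42 bp at Chrna9, in windows centred on it, on the plus strand of mm9, 5′ to 3′. The overlap near Gm10718 held neither CAGGTG nor CAGCTG.
Celf2, chr2:6833115-6833234: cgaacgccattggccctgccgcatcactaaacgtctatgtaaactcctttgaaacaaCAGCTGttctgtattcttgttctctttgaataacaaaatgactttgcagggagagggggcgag
Chrna9, chr5:66320565-66320684: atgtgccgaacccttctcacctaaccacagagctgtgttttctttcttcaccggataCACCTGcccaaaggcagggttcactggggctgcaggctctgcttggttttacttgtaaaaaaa

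Shared sites lay mostly away from promoters. Of the 1050, 93 (8.86%, 7.29 to 10.7) were within 1 kb of a start site of a protein-coding transcript, 29 in exons, 455 (43.3%) in introns and 473 (45.0%) between genes. Promoters made up 17.4% (16.8 to 17.9) of unshared DP peaks and 3.65% (2.29 to 5.76) of unshared iNKT peaks. The E-box share depended on position, at 39.8% (30.4 to 49.9) for CAGGTG at promoter sites and 65.2% outside them. By chromosome, between 40.6% (X, 13 of 32 peaks, 25.5 to 57.7) and 87.1% (chromosome 11, 88 of 101, 79.2 to 92.3) of iNKT peaks were shared.

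A gene was assigned to 786 sites, by the nearest start site, for midpoints in a gene or up to 30 kb before its start or 5 kb past its end, and 264 sites had none. This gave 693 genes, or 3.12% of 22208 protein-coding genes and, counting the 689 with a DP peak of their own, 11.0% of 6281 DP-bound genes. Their median length was 55.7 kb against 26.8 kb for the other DP-bound genes, and their median number of DP peaks 3 against 1. A gene with more DP peaks has more peaks that can be shared, and 5.99% of all DP peaks were, so the number of peaks and the following shares are not read as a trait of the genes. A shared site was found at 4.69% of 3413 genes with a single DP peak, 10.4% with 2, 18.2% with 3 to 4, 32.0% with 5 to 9 and 50.9% of 108 genes with 10 or more. Where a gene had 2 or more DP peaks and a shared site, which held for 528 genes, the strongest DP peak was among the shared ones in 415 (78.6%, of which 10 were tied with an unshared peak), although only 31.5% of the DP peaks of such a gene were shared on average. Over the whole list the median DP score was 1042.56 at shared sites and 131.21 at unshared DP peaks, so this contrast is not particular to these genes.

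Several sites at a gene were found at 78 genes, of which 65 had 2, 12 had 3 and Dgkd had 5. These 78 had a median of 6.5 DP peaks and a median length of 94.96 kb. The site that scored highest in iNKT was also the highest in DP at 44 of the 78, and at a further 4 it was tied for the highest DP score, by a score of 3100 at both sites or by a DP peak under both. Among the 65 genes with 2 sites, both lists put the sites in the same order at 38 and in opposite order at 24, with 3 tied.

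Dgkd, which encodes diacylglycerol kinase delta, an enzyme that removes the second messenger diacylglycerol, had the most shared sites of any gene. Its strongest site, 6034 bp upstream (chr1:89743003-89744652), scored 564.74 in iNKT and 3100 in DP. In the gene body, a site 46.677 kb from the start scored 298.36 and 1449.38, and those at 13.53 and 53.531 kb scored 58 and 762.89 and 56.05 and 410.53. A site 23388 bp upstream, within Sag, scored 66.97 and shared a DP peak of 3088.55 with a further iNKT peak of 54.73. The iNKT scores thus fell into a strong pair and 4 peaks near the floor of 50, while the DP scores were spread between 410.53 and 3100.

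Pik3r5, the p101 regulatory subunit of PI3K gamma, had 3 sites in 1 intronic stretch, with iNKT scores of 68.43, 330.26 and 658.22 and DP scores of 3025.54 (a single DP peak under both weaker sites) and 3010.02. Ikzf1, which encodes Ikaros, had sites 6.085 kb upstream (120.06 and 197.14) and 31.556 and 40.949 kb into the gene (145.62 and 2037.22, 82.66 and 2345.29). The upstream Ikzf1 site came between the other two in iNKT and was by far the weakest in DP. Arid1b, a subunit of BAF chromatin remodelling complexes, had 3 intronic sites with iNKT scores from 69.05 to 88.98 and DP scores from 898.44 to 1972.6, in opposite order. The other genes with 3 sites were Spats2l, Zfp13, Gramd3, Acsf3, Pgpep1l, Slco3a1, C1galt1, Rps6ka2 and Syt13. Of the 13 genes with at least 3 sites, 6 had the same strongest site in both lists, and at Slco3a1 the strongest DP peak lay under both stronger iNKT sites.

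**Figure D5:**
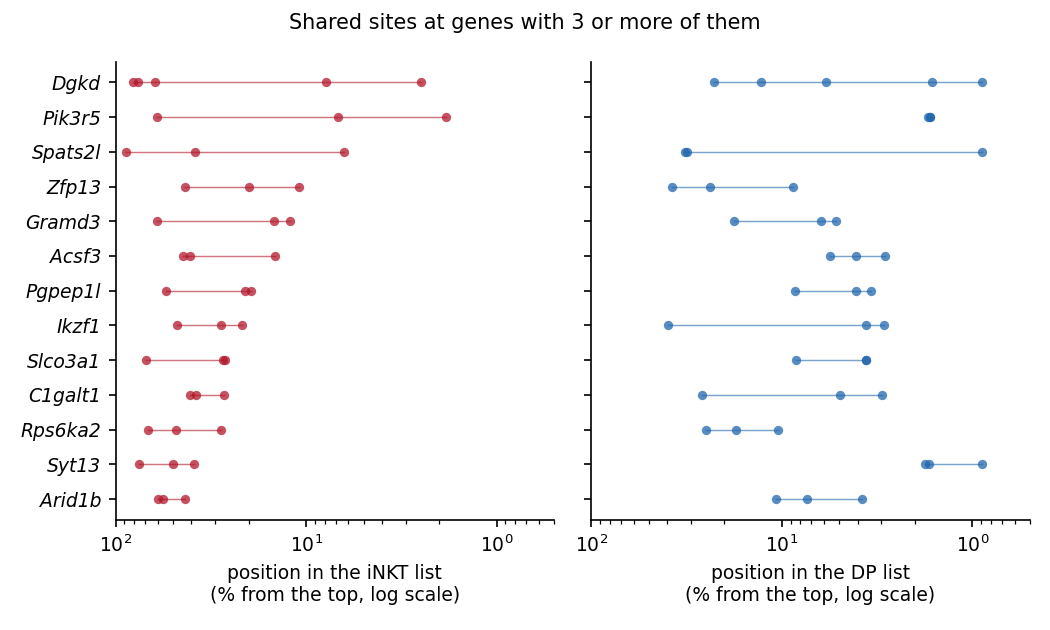
Positions in the iNKT list (left) and the DP list (right), as percent from the top on log axes, of each shared site at the 13 genes with 3 or more, 1 row per gene and 1 point per site. Dgkd spreads from 2.51% to 80.7% in iNKT and from 0.887% to 22.8% in DP, whereas the sites of Arid1b lie between 43.3% and 59.8% in iNKT.

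Genes with 2 sites included 4 named here after their values were seen. Bach2, a repressor that holds back effector differentiation, scored 442.11 and 65.1 in iNKT. Camk4 and Cbfa2t3, a kinase of calcium signals and a co-repressor partner of E proteins, had best scores of 189.91 and 264.06, and Xbp1, a factor of the unfolded protein response, 147.83.

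Joining sites less than 50 kb apart gave 916 loci, of which 107 held 2 or more and 4 held at least 4. Besides the 6 sites at Dgkd and Sag, 4 lay around Zfp13 and Zscan10 on chromosome 17, with iNKT scores of 89.19, 203.97, 225.64 and 154.07 and DP scores of 1072.13, 2163.03, 211.22 and 385.66. Upstream of Id3, a gene deleted in these cells, 4 sites spanned chr4:135636756-135684060. Read towards the gene, they scored 179.03, 375.22, 131.8 and 57.27 in iNKT and 1640.28, 3100, 532.57 and 343.28 in DP, so both lists gave the same order. The last of them, 15.871 kb from the Id3 start, had 4 CAGGTG in its overlap. The remaining locus, at the start of chromosome 9, was in repeats with copy numbers of 5 to 14 and neither CAGGTG nor CAGCTG in the central 1 kb of its 4 sites.

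Of 249 annotated genes in lists of thymocyte and iNKT biology, 40 (16.1%) had a shared site, beside 3.12% of all genes. These genes were more often DP-bound to begin with (77.9% against 28.3%), and of the 194 bound ones 20.6% had a shared site, beside 11.0% of all DP-bound genes. Shares by list rest on few genes and are given as counts.

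Among receptors that guide migration, 5 of 18 genes had a shared site. Selplg, which encodes the selectin ligand PSGL-1, had the strongest, 2.25 kb upstream, with 732.83 in iNKT (rank 26) and 3100 in DP. A site within the annotated body of Ccr9, the receptor that takes cells to the gut, scored 257.27 and 2243. It lay 78.5 kb from the Ccr9 start and 49.5 kb from Cxcr6, and the nearest start was that of Lztfl1, at 39.3 kb. Plxnd1 (124.93 and 3100) and Cxcr5 (107.69 and 1349.59) had intronic sites, and Cxcr4, the receptor for CXCL12, a promoter site of 65.78 and 2726.75.

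Of 27 genes of cytokine receptors and their signalling, 5 had shared sites. The intronic site in Tgfbr2, the TGF-beta receptor chain needed by iNKT cells, scored 461.7 in iNKT (rank 58) and 1676.53 in DP (rank 833). Il6ra and Smad3 had 2 sites each, with best iNKT scores of 153.27 and 123.71, and Jak1 (82.25 and 115.89) and Stat5b (64.3 and 229.27) a weak site each.

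The T cell receptor complex and its assembly gave 3 of 14 genes. Cd247, the CD3 zeta chain, had an intronic site of 175.27 and 3100. A site of 147.21 and 2313.74 lay between the starts of Cd3g and Cd3d, 0.6 and 0.7 kb away, and its nearest E-box was 485 bp from the midpoint. The site in Lig4, the ligase of V(D)J end joining, scored 219.61 and 2112.37.

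Downstream of the receptor, 6 of 33 genes had shared sites. Next to the arrays at Nr4a3, Nfkb1 and Themis, these included Ctla4, an inhibitory receptor (165.41 and 1129.33), and Lck, the kinase that starts the signal (76.73 and 1166.12, 1.774 kb upstream). LckCre, used to delete Id2 and Id3 here, is driven by Lck promoter sequence, and where both hold the same bases, reads of the transgene and of the gene cannot be told apart.

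Of 31 T lineage transcription factors, 27 were DP-bound and 4 had a shared site: Ikzf1, Ets1 (68.37 and 3100), Sox4 (185.59 and 3100) and Zbtb7b. Zbtb7b encodes ThPOK, the factor of the CD4 lineage, and its site scored 219.64 and 662.43, lay over an exon and had 9 CAGGTG in the overlap. Of 30 genes of iNKT development and function, 7 had a site. Gzma, the granzyme A gene, stood first after Sox4 with a promoter site of 159.5 and 895.09, followed by Klrk1 (96.63 and 82.34), Hivep3 (82.54 and 1748.28), Cd44 (67.82 and 2917.67), Slamf6 (55.92 and 88.42) and Zbtb16 (54.09 and 54.93). Klrk1, Slamf6 and Zbtb16 encode NKG2D, a SLAM receptor and PLZF. The Slamf6 and Zbtb16 sites were in the lower 50% of both lists, and the Klrk1 site was at 38.5% in iNKT and 71.1% in DP. A site near Tcf7, outside the reach of the gene rule at 31.129 kb, scored 432.44 and 3100.

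Among the E and Id proteins themselves, the HEB gene Tcf12 (51.29 and 493.36) and Id3 had shared sites, 2 of 7 genes. Cell cycle genes gave 4 of 17: E2f2 (173.72 and 3100), Ccne1 (173.02 and 1781.41), Ccnd3 (87.64 and 3100) and Cdkn1b (72.58 and 225.56). Apoptosis genes gave Bcl2l11 (75.53 and 1750.46) and Bid (74.84 and 1835.37), 2 of 15, which encode the BH3 proteins Bim and Bid. Of 25 listed chromatin regulators, which do not include Arid1b, 1 had a shared site. None of 13 Notch pathway genes had a shared site, and of the 11 that were DP-bound few would have had one at the 11.0% of all DP-bound genes. In the lists of B lineage and myeloid genes, 1 of 14 (Irf4, 104.4 and 3100) and 1 of 12 (Itgam, 168.71 and 3100) had a site, both also among the strongest DP peaks. Of these lists 10 and 2 genes were DP-bound, and no cell type is read from them.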

How the data were processed

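The submitters' processing notes name Bowtie 1.1.2 and MACS 1.4.2 with mm9. The study's methods list Bowtie settings that keep only reads with a single best position, and default settings for peak calling. Its figure legends give p below 1e-05 for the peaks, and the peak lists are labelled as E2A against input. The deposited files are peak lists with 1 score per peak, which the authors' caller set to 10 times the negative log10 of a p-value, not scaled for depth. Read totals are not given in the sources used here, so depth is unknown.

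Here peaks were intersected as half-open intervals, each shared iNKT peak was paired with the DP peak of longest overlap, and sequence and genes were read from NCBIM37 and GENCODE M1. Copy number is the median occurrence of 31-base words of a peak in the assembly. Python 3.11.15, pandas 2.3.3, pysam 0.24.0 and numba 0.67.0 were used, and the interval, gene and motif functions were tested on simulated data. With 1 library per cell type no test was made, and Wilson intervals cover counting error only. Named sites are the 12 highest in both lists, 6 furthest apart in either direction, genes with most sites and, from 13 gene lists, up to 5 genes each, with Tcf7, Sox4, Gzma and Zbtb16 as genes the study shows. Where more than 5 genes of a list had a site, all were named, except that 2 genes with shared sites are not reported here. Members and lists were chosen with earlier results of these data known.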

Additional observations from a re-analysis of the deposited data

How the results depend on the processing

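No paired analysis was possible because each cell type had 1 E2A library and no result came from a test, and leaving out a replicate was not possible for the same reason. Of 38 alternatives for 11 results, 21 moved by less than counting error (counts, by less than 1.5 times), 17 by more and none changed sign. A minimum score of 100 in both lists gave 461 shared sites, 83.1% of iNKT peaks, 325 genes, 21 of them with 2 or more sites, and a rank correlation of 0.201, since it removes weak peaks by construction. Overlap of at least 50% of both peaks gave a share of 56.4%. Without DP peaks tied at 3100 the rank correlation fell to 0.142. Promoter shares were 6.86% within 500 bp and 13.9% within 2500 bp. CAGGTG lay in 42.5% of sites within 100 bp, 80% within 400 bp and 89.8% over the whole overlap. At the peaks' own midpoints, its excess at shared over unshared iNKT peaks, 25.5 points, was 19.4 within 5 bins of score averaged without weights, and that in DP, 11.1 points, was 14.3 within 10 bins. Weighted by the shared peaks in each bin, a choice made after seeing the data, they were 17.98 and 9.18 points, the latter within counting error of the 11.1 points. Chosen after seeing the data, a minimum of 8 or 15 E-boxes put the share of arrays at 7.33% or 3.71%, against 3.65% or 1.72% of unshared iNKT and 1.63% or 0.443% of unshared DP peaks, and left the share of arrays higher in iNKT at 36.4% or 41.0%. Without arrays the rank correlation was 0.294. Depth, which is unknown, limits which weak peaks could be called in iNKT.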
